A study of Mus musculus with 6 samples.

Results

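Highly methylated promoters are a small class of gene starts in GS cells, a culture of mouse spermatogonia in which spermatogonial stem cells are kept. A promoter was the set of CpG sites no more than 500 bp from the transcription start site (TSS) of an autosomal gene, and a gene needed 3 or more such sites, each read 10 or more times in every one of the 6 samples. The reads of these sites were summed in each sample, and the methylation level is the percent of them that were methylated. A read that covers several of the sites counts at each of them. Of 13178 promoters, 200 had a mean level of the 6 samples over 70%, which is 1.52%. They hold 843 of the 308737 CpG sites in these promoters. They were selected on the mean level of the 6 samples, so these levels are a description, and the difference between the groups is the measure that the choice did not use.

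The data are reduced representation bisulfite sequencing (RRBS), in which CpG-rich fragments are read after bisulfite has converted unmethylated cytosines. There were 3 replicates of Space GS cells, cryopreserved for 6 months in the International Space Station, and 3 replicates of Ground GS cells, cryopreserved for 6 months on Earth. All 6 samples carry the same genotype, DBA/Tg14(act-EGFP-OsbY01), in which a ubiquitous actin promoter drives EGFP, and the cells had been thawed and passaged before their DNA was taken. GS cells are grown on mouse embryonic fibroblasts, and the share of fibroblast DNA in a sample was not measured. The reads summed over all sites ranged from 28535973 to 33743845 per sample. The promoters of 8 of 12 spermatogonia markers could be measured, and all 8 were at 3.36% or less, with *Dazl* the highest. Of 10 fibroblast markers, the promoters of *Vim* and *Fn1* could be measured, at 1.21% and 2.31%, so these markers do not separate the cell types here.

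CpG methylation is copied to daughter strands by the maintenance methyltransferase, and promoters dense in CpG sites usually stay free of it. Promoters with few CpG sites are often methylated in cells that do not use the gene. In embryonic germ cells, methylation is erased, parental imprints included, and male germ cells set it again with paternal imprints before birth.

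The promoters were mostly at low levels, and every 10% step above was filled. A total of 12775 promoters, 96.9%, had a level under 10%, and 203 lay between 10% and 70%. Of the 200 highly methylated promoters, 103 were over 95%, 41 between 90% and 95%, 33 between 80% and 90%, and 23 between 70% and 80%. Their median was 95.1%. Just above the threshold were *Taar4*, a trace amine receptor, at 70.1%, *Prodh2* at 70.2%, and *Gm42788*, *Rnf223*, and *Ropn1*, between 70.7% and 72.1%. Just below it were *Il17re*, an interleukin receptor chain, at 69.3%, *Osbpl7* at 69.3%, *Gm49322* at 68.7%, *Omp*, a marker of olfactory neurons, at 68.4%, and *Hhatl* at 67.7%.

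**Figure D1:**
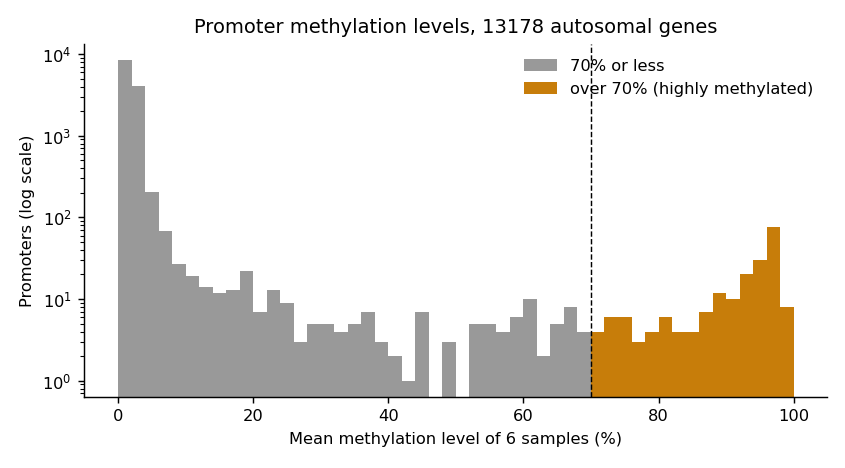
Mean methylation level of the 6 samples (horizontal axis, %) against the number of promoters on a log scale, for 13178 autosomal genes. The dashed line is the threshold of 70%, above which the 200 highly methylated promoters lie, and 103 of these exceed 95%.

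The sequences of 4 highly methylated promoters, with that of an unmethylated muscle gene, show how few CpG sites most of them hold. They are RefSeq promoters of build GRCm38.p6, 250 bases before and 50 bases after the TSS, in the direction of the gene, with the measured CpG sites in capitals. The deposited coordinates belong to another build, so they were matched by symbol and by the distance of each site from the TSS. These genes were chosen after their values were seen, among those in which every measured site in the window fell on a CG. Other highly methylated promoters met this and were not printed, some with 4 measured sites in the window, beside 3 in *Apoc2* and *Chrna1*. *Ryr2* was likewise not the only unmethylated gene that met this. Of 153 sites of highly methylated promoters in such windows, 43.8% fell on a CG, beside 41.9% for all promoters, so many deposited TSSs lie elsewhere.
*Gm42788* (chr5:149144013-149144312, plus strand): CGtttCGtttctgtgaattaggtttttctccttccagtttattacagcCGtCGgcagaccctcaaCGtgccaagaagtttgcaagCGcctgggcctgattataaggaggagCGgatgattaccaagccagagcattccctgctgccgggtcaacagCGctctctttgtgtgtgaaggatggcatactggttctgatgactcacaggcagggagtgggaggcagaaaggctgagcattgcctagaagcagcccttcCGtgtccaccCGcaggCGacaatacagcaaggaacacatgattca
*Cavin4* (chr4:48663264-48663563, plus strand): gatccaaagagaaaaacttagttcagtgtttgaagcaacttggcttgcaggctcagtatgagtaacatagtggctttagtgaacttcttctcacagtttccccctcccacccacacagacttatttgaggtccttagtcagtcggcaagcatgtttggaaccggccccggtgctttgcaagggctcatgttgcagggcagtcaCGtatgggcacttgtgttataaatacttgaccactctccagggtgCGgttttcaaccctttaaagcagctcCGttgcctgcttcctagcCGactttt
*Apoc2* (chr7:19677892-19678191, minus strand): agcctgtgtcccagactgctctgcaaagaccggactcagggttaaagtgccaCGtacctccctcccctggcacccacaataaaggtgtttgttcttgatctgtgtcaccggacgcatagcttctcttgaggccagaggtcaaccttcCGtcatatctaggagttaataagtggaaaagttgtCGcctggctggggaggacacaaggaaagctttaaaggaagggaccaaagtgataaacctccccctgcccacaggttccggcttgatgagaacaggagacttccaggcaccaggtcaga
*Chrna1* (chr2:73580289-73580588, minus strand): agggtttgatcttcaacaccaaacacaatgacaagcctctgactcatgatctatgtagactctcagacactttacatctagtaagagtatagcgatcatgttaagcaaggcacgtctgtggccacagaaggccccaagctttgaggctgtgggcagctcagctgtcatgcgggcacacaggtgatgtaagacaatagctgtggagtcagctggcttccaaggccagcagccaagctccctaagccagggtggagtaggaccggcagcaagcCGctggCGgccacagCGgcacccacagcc
*Ryr2* (chr13:12106896-12107195, minus strand): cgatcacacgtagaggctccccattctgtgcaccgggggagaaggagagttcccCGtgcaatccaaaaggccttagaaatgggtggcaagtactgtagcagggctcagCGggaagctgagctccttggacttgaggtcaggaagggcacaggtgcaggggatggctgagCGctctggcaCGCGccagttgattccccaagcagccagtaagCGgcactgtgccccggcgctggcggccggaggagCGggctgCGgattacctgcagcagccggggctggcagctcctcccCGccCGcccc

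*Cavin4*, a caveolar protein of muscle, holds 7 CpG sites in this window, of which 4 were measured, and the mean level of these sites was 95.3%. *Apoc2*, an apolipoprotein that activates lipoprotein lipase, holds 7, with 3 measured and a level of 97.0%. *Chrna1*, the alpha subunit of the muscle acetylcholine receptor, holds 7, with 3 measured and a level of 94.3% at these sites. *Gm42788*, a long noncoding RNA gene, holds 12, with 11 measured and a level of 64.2% at these sites. *Ryr2*, the calcium release channel of heart muscle, holds 18, with 10 measured and a level of 1.90% at these sites. Over all measured sites within 500 bp, the levels were 96.6% in *Cavin4* (5 sites), 91.1% in *Chrna1* (4), 70.7% in *Gm42788* (17), and 1.25% in *Ryr2* (35).

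The part of the class with a RefSeq promoter was compared by sequence. Since many deposited TSSs lie elsewhere, this sequence is often not that of the measured sites. RefSeq promoters were found by symbol for 111 of the 200 highly methylated promoters and for 9229 of the 12775 promoters under 10%. The highly methylated promoters held a median of 5 CpG sites, beside 23 in those under 10%. Their median ratio of observed to expected CpG sites was 0.265, beside 0.792, and their median GC content was 53.3%, beside 62.7%. The ratio was over 0.6 in 5 of 111 highly methylated promoters, 4.50%, and in 78.3% of those under 10%. The 107 matched promoters of 10% to 70% were near the highly methylated ones, with a median of 8 CpG sites, a median ratio of 0.361, and a GC content of 53.3%. The letters CGCG, which read alike on both strands, were found in 10 of the 111, 9.01%, beside 75.9% of all promoters. The GC box GGGCGG, searched on both strands, was found in 23, 20.7%, beside 68.0%, and CCAAT in 33, 29.7%, beside 36.9%. TATAAA, searched on both strands, was found in 15, 13.5%, beside 6.55%. In the promoters of 10% to 70%, the shares of these motifs, in the same order, were 20.6%, 22.4%, 33.6%, and 13.1%. The CGCG and GC box motifs hold a CG themselves.

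**Figure D2:**
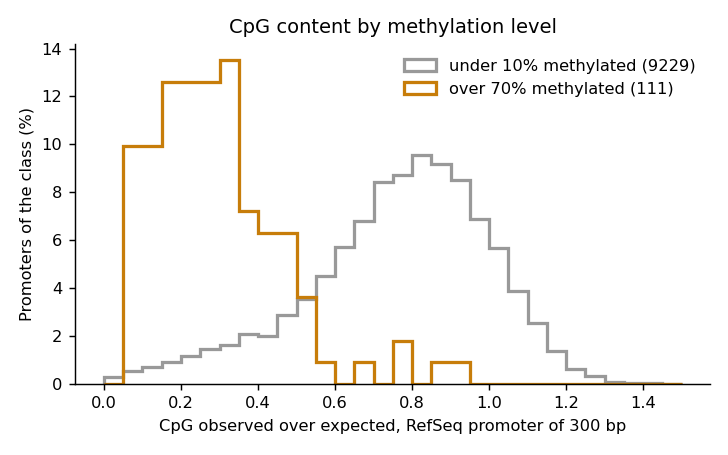
Ratio of observed to expected CpG sites in the RefSeq promoter (horizontal axis) against the percent of promoters of each class (vertical axis). The 111 highly methylated promoters centre on a median of 0.265 and the 9229 promoters under 10% on 0.792.

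The measured sites were correspondingly few. The median was 4 sites per highly methylated promoter, beside 19 over all promoters and 4 over those of 10% to 70%. The minimum of 3 sites was found in 94 of the 200, 47.0%, and in 35.0% of the promoters of 10% to 70%. Of the 200, 3 had 10 sites or more, beside 75.0% of all promoters. Reads per site had a median of 22, beside 31.5, and the reads summed over a promoter in 1 sample ranged from 30 to 6219. In 78 of the 200, all sites had the same coverage as each other in every sample, so these sites may share reads and are not independent measurements. Sites upstream of the TSS made up 38.2%, beside 29.0% over all promoters and 36.2% over those of 10% to 70%. The median site level was 94.1% upstream and 95.4% downstream.

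Protein-coding genes made up 97 of the 200, 48.5%, beside 83.1% of all promoters, with gene types taken by identifier from GENCODE M21. There were 39 lincRNA genes, 19.5% beside 3.94%, and 36 antisense genes, 18.0% beside 5.47%. In the 203 promoters of 10% to 70%, the shares were 57.1% for protein-coding, 25.1% for lincRNA, and 9.85% for antisense genes. Predicted genes with a Gm name numbered 82, which is 5.37% of the 1528 measured, and Rik clone genes numbered 18 of 679, 2.65%. Another 67 Gm genes and 15 Rik clone genes lay between 10% and 70%, so neither was particular to the highly methylated class. Of 247 Zfp zinc finger genes and 67 ribosomal protein genes, 0 were highly methylated, beside 1.52% of all promoters. These are counts, with no test. The members lay on all 19 autosomes, with at least 3 on each.

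Genes of differentiated tissues were found in the class by lists of tissue genes. Of 10 measured genes of liver, gut, kidney, and pancreas, 4 were highly methylated, of 15 genes of striated muscle 4, of 17 genes of blood and immune cells 3, of 25 genes of spermatids and sperm 3, and of 30 genes of epithelium and skin 1. The share over all promoters was 1.52%. Of the 201 measured genes of all lists, those named next included, 15 were highly methylated and 10 lay between 10% and 70%. Over all 13178 promoters these numbers were 200 and 203, so listed genes were not particular to the highly methylated class. Of 19 genes of brain and sense organs, 43 germline genes that are methylated in somatic cells, 15 genes of pluripotency and the early embryo, 8 genes of trophoblast and placenta, and 22 imprinted genes (3 with paternal and 19 with maternal methylation), 0 were highly methylated. The imprinted genes were measured within 500 bp of the TSS alone. Their values therefore do not give the state of imprinted regions that lie elsewhere. The lists hold few genes with at least 3 sites, and their choice was made with earlier results known. In lists this small, 0 is near the share of 1.52% and does not set these genes apart.

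Among muscle genes, *Pygm*, the glycogen phosphorylase of muscle, had levels of 92.2%, 84.8%, and 91.1% in the Space replicates and 90.1%, 92.2%, and 95.3% in the Ground replicates, in the order of their numbers. *Acta1*, skeletal muscle actin, had 92.0%, 96.9%, and 90.6% in Space GS cells and 90.2%, 91.7%, and 94.2% in Ground GS cells. *Tnni3*, cardiac troponin I, had 84.1%, 89.3%, and 88.8% in Space GS cells and 78.6%, 84.6%, and 81.3% in Ground GS cells. The groups overlapped at all 3 promoters. *Mb*, myoglobin, ranged from 88.6% to 100%, with 3 sites and as few as 30 reads summed over them. Of the 15 measured muscle genes, 9 were under 10% and 2 between 10% and 70%. Those under 10% included *Des*, desmin, at 1.95%, and *Myod1*, a master regulator of muscle, at 0.898%.

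Among genes of liver and gut, *Hnf4a*, a nuclear receptor of hepatocytes, had levels of 93.4%, 96.9%, and 97.1% in Space GS cells and 97.5%, 97.5%, and 96.7% in Ground GS cells. *Fgb*, the beta chain of fibrinogen, had 93.3%, 96.4%, and 97.5% in Space GS cells and 96.7%, 97.5%, and 88.2% in Ground GS cells. *Clps*, pancreatic colipase, had 100%, 97.2%, and 100% in Space GS cells and 95.7%, 94.6%, and 98.2% in Ground GS cells. The groups overlapped in each of them and in *Apoc2*, which ranged from 95.5% to 100%. Of the 10 measured genes of this list, 5 were under 10% and 1 between 10% and 70%. On the unmethylated side, *Cdx1*, a homeobox factor of the intestine, was at 1.70% and *Rbp4*, the retinol carrier of blood, at 1.56%.

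Among genes of blood, immune cells, and skin, *Cd6*, a surface receptor of T cells, ranged from 92.6% to 100%, and *Krt10*, a keratin of the upper epidermis, from 92.9% to 100%. *Mzb1*, a protein of antibody-secreting B cells, was lower, from 73.3% to 85.0%. *Itga2b*, an integrin chain of platelets, had 91.5%, 91.9%, and 90.9% in Space GS cells and 89.0%, 81.4%, and 90.5% in Ground GS cells, and every Space level lay above every Ground level. Of the 17 measured genes of blood and immune cells, 11 were under 10% and 3 between 10% and 70%. Of the 30 measured genes of epithelium and skin, 28 were under 10% and 1 between 10% and 70%. Those under 10% included *Tal1*, a factor of blood stem cells, at 1.47%.

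The highly methylated genes of spermatids and sperm are used after the spermatogonial stage. *Ropn1*, a protein of the sperm tail, had levels of 81.3%, 78.3%, and 59.5% in Space GS cells and 66.7%, 74.7%, and 71.8% in Ground GS cells. *Klhl10*, a ubiquitin ligase adaptor of spermatids, ranged from 86.96% to 97.0%. *Dcst2*, a sperm membrane protein needed for fertilization, had 91.7%, 91.7%, and 92.9% in Space GS cells and 98.2%, 93.3%, and 95.5% in Ground GS cells, and every Space level lay below every Ground level. Of the 25 measured genes of this list, 21 were under 10%, among them *Catsper2*, a sperm calcium channel subunit, at 1.33%.

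**Figure D3:**
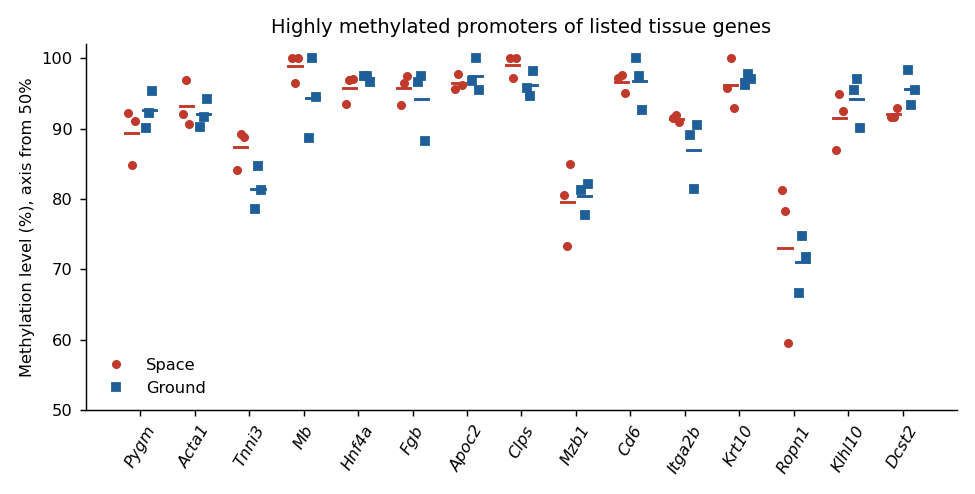
Methylation level (vertical axis from 50%, %) of the 15 highly methylated promoters found in the tissue lists, with 1 point per replicate (circles Space, squares Ground) and a line at each group mean. All groups overlap except at *Itga2b* and *Dcst2*, and *Ropn1* has the widest spread.

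The promoters with the most sites had levels between 70.7% and 96.9%. *Gm57020* had 20 sites and levels of 84.7%, 82.3%, and 82.5% in Space GS cells and 84.2%, 81.6%, and 83.6% in Ground GS cells. At least 4903 reads per sample were summed over its sites. Its sites had a median of 294 reads, beside 22 over the class, and whether they lie in repeated sequence was not tested. *Zdhhc25*, a gene of the palmitoyltransferase family, had 15 sites, and its 6 samples ranged from 64.2% to 83.2%. In *Gm42788*, with 17 sites, the site levels were 75.9% to 89.2% at distances of 245 to 369 bp upstream and 44.1% to 58.3% at the 4 sites after the TSS. The next were *Fscn2*, *Gm26575*, *1700120K04Rik*, and *Gm48747*, with 9 sites and mean levels of 79.2% to 96.9%, and *Sult2a4*, a sulfotransferase, and *Gm17114*, with 8 sites and levels of 95.5% and 73.9%.

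Within promoters, most sites were alike. Of the 843 sites, 430 were over 95%, and all sites were over 80% in 152 of the 200 promoters. In contrast, 7 sites in 7 promoters were under 20%. These promoters were named after their values were seen. The site 322 bp downstream of the TSS of *Siglecf*, an eosinophil receptor, had 0 methylated of 103 reads over the 6 samples, which allows a level of up to 2.91%, while the other 3 sites of this promoter were at 95.2% to 99.2%. In *Fscn2*, a retinal actin-bundling protein, the site at 499 bp had 0 of 120 reads, which allows up to 2.5%, and the site at 495 bp was at 97.1%. In *Gm57020* the site at 487 bp had 6 of 1661 reads, and the site at 490 bp was at 97.7%. The others were in *Cdsn*, *Gm11505*, *Gm17114*, and *Gm50269*, at 0.980% to 6.75%. Such limits cover counting error alone, since reads without molecular identifiers may be copies of 1 molecule. Whether the DNA of these cells differs from the reference build at the 7 sites was not tested.

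**Figure D4:**
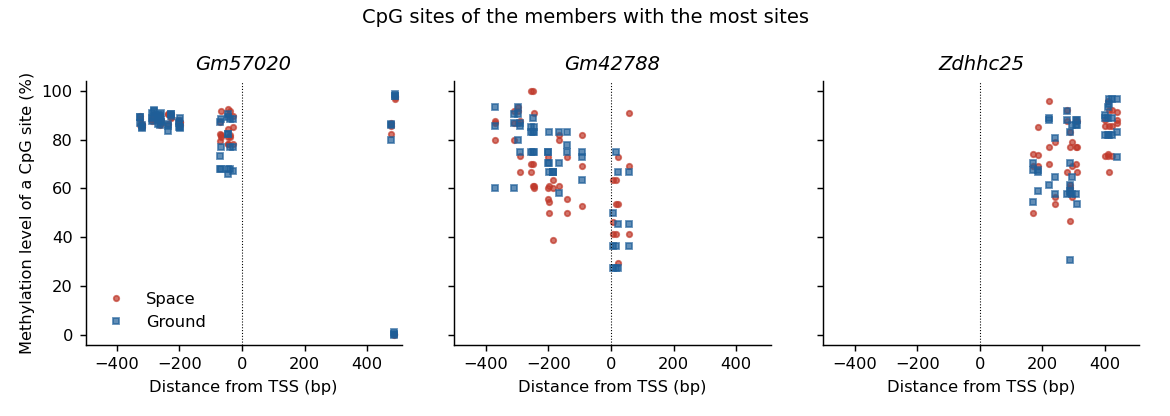
Level of each CpG site (vertical axis, %) against its distance from the TSS (horizontal axis, bp) in the 3 promoters with the most sites, for each replicate (circles Space, squares Ground). The mean levels of 19 sites of *Gm57020* lie between 79.6% and 97.7% and 1 site is near 0%, and those of *Gm42788* are lower after the TSS.

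Sites farther from the TSS were not used in the choice of the promoters. At more than 500 and up to 2000 bp from the TSS, 21 of the 200 genes had at least 3 sites, with a median of 74.4%, beside 2.04% for all 5192 genes with such sites. Of the 21, 14 were over 70% and 4 under 10%. The 4 were *Xpnpep1*, an aminopeptidase, with 1.29% over 32 sites beside a promoter level of 91.7%, *Rap1gapos* with 1.48% beside 95.2%, *Tlcd3b* with 2.62% beside 92.0%, and *Gm26544* with 4.01% beside 94.8%. *Ldhd*, the D-lactate dehydrogenase, was between, with 49.6% beside 96.8%. The deposited data hold 0 genes with more than 1 TSS. Whether the 4 genes under 10% have another TSS near the unmethylated sites was not tested. By distance, the median was 93.0% from 500 to 1000 bp (11 genes), 54.1% from 1000 to 2000 bp (13 genes), and 86.5% from 2000 to 5000 bp (36 genes), beside 1.86%, 2.42%, and 43.4% for all genes.

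The median SD over the 6 samples was 2.58 percentage points. The SD moved with the level, with a median of 1.96 at promoters over 95%, 4.11 at those of 80% to 90%, and 8.30 at those of 30% to 40%, and levels near 100% leave little room for spread. It was lowest in *Gm10863* at 0.523, *Gm48276* at 0.723, and *A1cf*, the cofactor of apolipoprotein B RNA editing, at 0.757. *A1cf* was also the highest promoter, at 98.9%, followed by *Gm36462*, *2900057B20Rik*, *Gm16220*, and *Myo18b*, at 98.3% to 98.6%. The SD was highest in *Clic6* at 10.7, *Gm48539* at 10.2, *1700066C05Rik* at 9.89, *Taar4* at 9.78, and *9930105H17Rik* at 9.11. In their shallowest samples, these promoters had 44 to 66 summed reads. The median of this value was 66 over the highly methylated promoters and 545.5 over all promoters. The part of counting error in these SDs was not tested. In *Clic6*, a chloride channel protein, the levels were 79.6%, 91.1%, and 65.4% in Space GS cells and 71.1%, 72.2%, and 90.4% in Ground GS cells, so the spread was within both groups.

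The comparison of Space with Ground GS cells asked whether storage in space changed these promoters. The median level over the 200 promoters was 94.56%, 95.03%, and 94.98% in the Space replicates and 95.1%, 94.8%, and 94.7% in the Ground replicates, or 94.9% ± 0.260 and 94.9% ± 0.209 (SD, n = 3). Of the 200, 107 were higher and 93 lower in the Space group, and the median of the differences was 0.185 percentage points, beside 0.0730 over all promoters. The differences were under 5.92 points in 95% of them, and 14 exceeded 5 points.

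By a quasi-binomial test of the methylated and total reads with Benjamini-Hochberg adjustment over 13160 promoters, 0 of the 200 had an adjusted p under 0.05, where 0% of all promoters were called. The smallest adjusted p of the 200 was 0.911, and 0 had an unadjusted p under 0.05, beside 5.52% of all promoters. This test moderates each promoter's spread towards that of all promoters, whose median dispersion was 3.69, beside 1.23 in the 200. It is therefore strict at the 200, and 0 beside 5.52% does not show that they changed less than other promoters. With a spread that depended on the reads, a setting chosen after seeing the data, 0 of the 200 were called, beside 0.0076% of all, and 4 had an unadjusted p under 0.05, beside 5.83%. These were *Gm11574*, *Hrct1*, *Mirt2*, and *Klkb1*, and the smallest adjusted p was 0.785. By edgeR and by limma, 0 of the 200 and 0% of all promoters were called, and 1 of the 200 had an unadjusted p under 0.05, beside 4.06% (edgeR) and 4.64% (limma) of all promoters. A p that misses the threshold does not show that the levels were alike. These p-values set the difference between the groups against a moderated spread between replicates.

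The 5 promoters with the smallest p differed by less than 10 points. *Gm11574* had 94.2%, 95.7%, and 91.4% in Space GS cells and 82.9%, 88.9%, and 90.7% in Ground GS cells, a difference of 6.29 points with an adjusted p of 0.911 by the quasi-binomial test moderated with limma. *Mirt2*, an antisense RNA gene, had 96.9%, 95.1%, and 95.7% in Space GS cells and 90.7%, 86.9%, and 91.4% in Ground GS cells. *Veph1* had 76.7%, 74.0%, and 81.9% in Space GS cells and 89.2%, 86.7%, and 85.7% in Ground GS cells. In these 3 the groups did not overlap. *Gm32492* was also higher in all Space samples, with means of 98.9% ± 1.86 and 94.9% ± 1.19 (SD, n = 3). At *Hrct1*, reads were summed over 3 sites that lie 342 to 351 bp from the TSS. Of these summed reads, 0 of 77, 36, and 55 were unmethylated in the 3 Ground samples. In the Space samples, 2 of 51, 0 of 46, and 4 of 61 were unmethylated.

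The groups did not overlap at 18 of the 200 promoters, 9%, beside 9.57% of all promoters. Every Space level was higher at 10 (5% beside 5.62%) and lower at 8 (4% beside 3.95%), so these shares were near the background. At these 18, the exact permutation test (two-sided) gave p = 0.1, the smallest that 3 samples against 3 allow. Beside the genes above, those higher in Space GS cells were *Cldn14*, a claudin, *Gm16229*, *Gm16019*, *Gm17114*, *Gm16617*, and *4930563N14Rik*, and those lower were *Cct8l1*, *Smim5*, *E130218I03Rik*, *Gm16069*, *Gm28086*, and *Gm36462*. The largest differences, *1700066C05Rik* at 11.4 points and *Klkb1*, plasma kallikrein, at -10.6 points, were at promoters where the groups overlapped. *Klkb1* and those of the 18 with no value above were named after their values were seen.

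**Figure D5:**
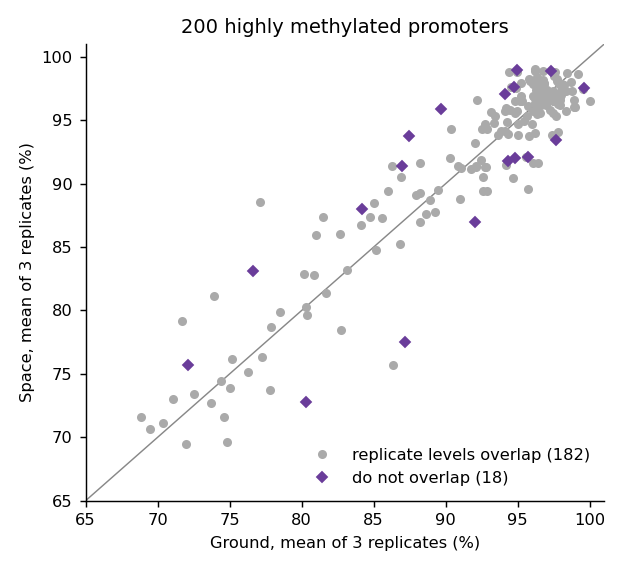
Mean level of 3 Ground replicates (horizontal axis, %) against that of 3 Space replicates (vertical axis, %) for the 200 highly methylated promoters, with the line of equal levels. Diamonds mark the 18 promoters whose replicate levels do not overlap, which lie on both sides of the line.

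Single sites were compared in the same way. Of the 843 sites, 407 had a mean level of 5% to 95% and were tested among 90305 sites, and 0 had an adjusted p under 0.05 by the quasi-binomial test moderated with limma, where 0% of all sites were called. The smallest adjusted p was 0.793, and 20 sites, 4.91%, had an unadjusted p under 0.05, beside 5.59% of all tested sites.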

How the data were processed

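RRBS was performed on 3 Space and 3 Ground GS cell samples, grouped by their titles. Per the labels, the submitters' processing notes name Trim Galore, Bismark 0.24.2, methylKit, and build mm39. The authors deposited 1 table that gives, per CpG site and sample, the count of reads, the percent of them methylated, and the nearest TSS. The distance to that TSS, in bp, is a score column that the authors deposited. Coverage times percent gave the methylated reads, within 0.000266 of a whole read. Positions were not 1 bp apart in any pair, so both strands had been joined. The mm39 genome was not used here, and no coordinate was converted.

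Sites needed at least 10 reads in all 6 samples (681804 of 2268080 sites). Reads were summed over sites within 500 bp of the TSS, with at least 3 sites per gene. Space and Ground were compared by a quasi-binomial test in R 4.3.3, its dispersion moderated by limma 3.58.1 (squeezeVar), and p-values were adjusted by Benjamini-Hochberg over all promoters or sites at a threshold of 0.05, and single promoters by an exact permutation test. Promoters with no variation to fit were not tested. The alternatives were other coverage minimums, windows, thresholds, and site numbers, edgeR 4.0.16, limma, Fisher's exact test, a block for the replicate number, and the omission of each replicate. Python 3.11.15 with matplotlib 3.10.9 drew the figures.

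The members and lists were chosen with earlier results of these data known. Promoters were named if they were in a list (at most 6 per list), had the most sites (8), the highest or lowest level (5 each), the smallest p (5), the largest (5) or smallest (3) SD, or the lowest level beyond 500 and up to 2000 bp (5), with 5 just under the threshold and up to 3 unmethylated genes per list. Others are said to be named after their values were seen.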

Additional observations from a re-analysis of the deposited data

How the results depend on the processing

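The number of highly methylated promoters depended on the filters, with 402 at a coverage minimum of 5 reads, 59 at 20 reads, 118 within 250 bp, 308 within 1000 bp, and 50 with at least 5 sites, and it was 204 to 218 when 1 replicate was left out. The promoters whose groups did not overlap numbered 35, 6, and 5 with 5 reads, 20 reads, and 250 bp, and 6 with at least 5 sites, where 9.1% to 9.63% of all promoters did not overlap, and 35 to 42 without 1 replicate, where 18.4% to 19.9% of all did not. Called promoters stayed at 0 except for 4 called by Fisher's exact test after pooling the reads of each group, which takes no account of replicate spread and called 23.4% of all promoters. The median difference between Space and Ground was -0.120 to 0.390 without 1 replicate, and it was below 0 without Ground replicate 2 (-0.120) and without Ground replicate 3 (-0.0407). The median level beyond 500 and up to 2000 bp was 92.8% with 5 reads (66 genes) and 72.2% with 20 reads (7 genes), and 72.5% to 92.8% without 1 replicate, so it rests on few genes. With the replicate number as a block, 0 promoters and 0 sites were called. Deviations of same-numbered samples correlated at 0.142, 0.0478, and -0.0209 over 451 promoters, and neither these values nor the labels establish pairs, though same-numbered samples have consecutive identifiers with no stated meaning. Joining adjacent positions was not run because no positions were 1 bp apart. Reads per site had a median of 22 in these promoters, beside 31.5 over all, and the part of depth and of site number in the number of promoters found was not separated.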
